A study of Mus musculus with 6 samples.

Results

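The 10 genes described here encode sugar, urate and lactate carriers of the kidney. Of these, 5 belong to the SLC5 family of sodium-coupled carriers (Slc5a1, Slc5a2, Slc5a8, Slc5a10 and Slc5a12) and 5 to the SLC2 or GLUT family of facilitated carriers (Slc2a1, Slc2a2, Slc2a4, Slc2a5 and Slc2a9). They were chosen by name, and 14 of the 56599 probes used carried these names. All 10 genes had a probe that passed the filter on dim probes, among 22741 genes tested. The samples were renal cortex of male C57BL/6 mice with diabetes, 3 from wild-type mice (WT) and 3 from mice lacking the C3a receptor (C3aR-/-). Both groups had the same treatment: a diet with 60% of its calories from fat, begun at an age of 8 weeks, and after 4 weeks streptozotocin, a toxin of insulin-producing beta cells, at 60 mg/kg on each of 3 days. Tissue was taken 26 weeks after streptozotocin. The design text also names non-diabetic groups, which were not analysed here, so the values compare genotypes within diabetes. The sources used here do not say how or in which cells the receptor gene was deleted, nor whether each sample was 1 animal. The p-values therefore measure only how far these samples spread, which may be technical.

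Glucose filtered at the glomerulus is taken back almost entirely by the proximal tubule. It enters the cell with sodium, mostly through SGLT2 (encoded by Slc5a2) in the early part of the tubule and through SGLT1 (Slc5a1) further down, and leaves on the blood side through GLUT2 (Slc2a2) and GLUT1 (Slc2a1). SGLT2 is the target of the gliflozin drugs used in diabetes and kidney disease.

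The sequences below are 60-base array probes, as the array files give them. They show what kind of sequence was read for a glucose entry carrier, a glucose exit carrier and the gene whose probes differed most in genotype difference. The Slc5a2 sequence is that of its dimmer probe, which served as a check and gave none of the gene's own values. The Slc2a2 sequence and probe a of Slc2a9 are the ones that gave their genes' values. The remaining Slc2a9 probe, which read the largest difference of that gene (0.79), is not shown. The Slc5a2 probe lies at chr7:135412649-135413454 (mm9, plus strand) and the Slc2a2 probe at chr3:28625253-28625961 (plus strand). These spans of 806 and 709 bases are longer than the probes, so both cross an intron. The Slc2a9 probes lie at chr5:38808475-38808534 (probe a, within 1 exon) and chr5:38831985-38844371 (probe b, across an intron), both on the minus strand.
Slc5a2: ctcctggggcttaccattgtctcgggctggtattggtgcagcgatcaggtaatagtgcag
Slc2a2: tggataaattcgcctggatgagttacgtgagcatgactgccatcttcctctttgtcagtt
Slc2a9 probe a: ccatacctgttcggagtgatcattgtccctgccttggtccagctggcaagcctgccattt
Slc2a9 probe b: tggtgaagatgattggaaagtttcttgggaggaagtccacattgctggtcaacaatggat
No single letter is marked in capitals, since each probe was read as a whole.

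No transporter gene was called different between the genotypes. Limma called 0 of the 10 at an adjusted p under 0.05, as it did 0 of all 22741 genes (0%). At an unadjusted p under 0.05 there were 0 of 10 members, against 1111 genes or 4.89% of all those tested. That count was 2 of 10 with the slide row as a block (7.66% of all genes) and 3 of 10 without 2 arrays that stood apart (8.90% of all genes), as given below. Without WT replicate 2 (Slc5a12) or WT replicate 3 (Slc2a4) it was 1 of 10. The range of counts over all genes with 1 array left out is given at the end. None of these counts is read here as particular to the members. The 2 arrays that stood apart were picked from these same data, so the count without them is a description. The groups did not overlap for 0 of 10 members, beside 9.85% of all genes. With only 10 genes, this count does not set the members apart. In C3aR-/- cortex 7 of the 10 read higher, beside 56.6% of all genes, and the median difference of the 10 was 0.07, beside 0.026 over all genes. Under the 18 alternatives described at the end, that median of the 10 ran from -0.15 to 0.24. For each of the 10 the difference between the group means was smaller than the range among the 3 WT arrays. Against the range among the 3 C3aR-/- arrays this failed for Slc2a4, with a difference of 0.31 and a range of 0.14. The share of all genes for which this holds is not given here.

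Levels below are log2 of the processed signal minus the 75th percentile of the same array, so 0 is a probe as bright as that percentile. A level says how bright a probe was and is not compared between genes. Differences are C3aR-/- minus WT on this log2 scale, with the limma standard error, and intervals cover 95%. Between 58.6% and 63.0% of probes were well above background on an array, correlations between arrays ran from 0.981 to 0.995, and the number of arrays limits the precision. WT replicate 1 and C3aR-/- replicate 2 stood farthest apart on the first principal component (43.1% of the variance) and are called the end arrays here. They were picked from these same data, so p-values without them are given as a description and not as a test. C3ar1, the gene of the deleted receptor, had a mean of -3.48 ± 0.47 over WT arrays and of -4.58 ± 0.44 over C3aR-/- arrays (SD, n = 3 each). It was above background on 2 of the 3 C3aR-/- arrays, and no source used here says if the deletion covers its probe, so it checks the labels only in part.

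**Figure D1:**
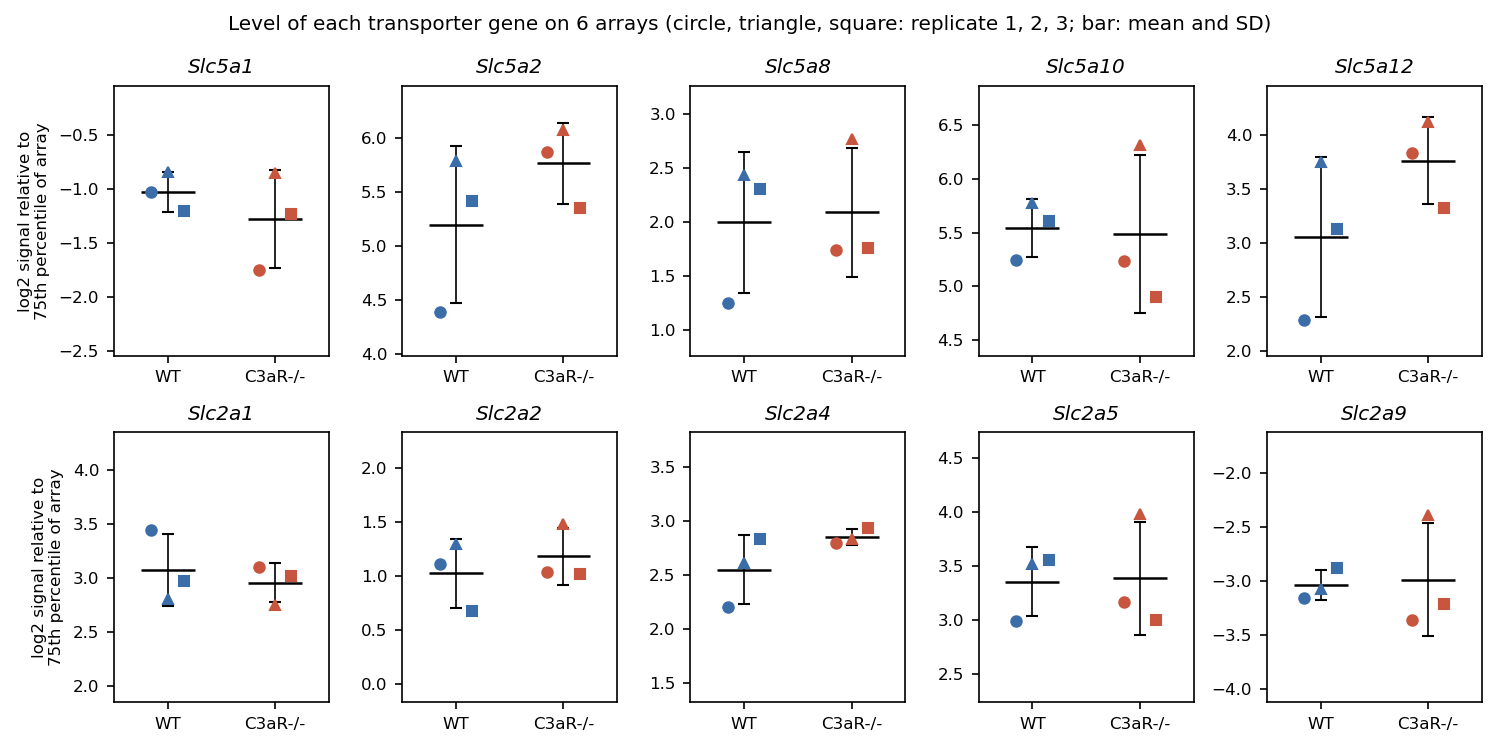
Level of each of the 10 transporter genes on the 6 arrays, in log2 units relative to the 75th percentile of the array, with blue for WT, red for C3aR-/-, symbols for the replicate number and bars for the mean and SD. Every panel has the same height in log2 units, and the groups overlap in all 10 panels.

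Slc5a2, the carrier that takes up most of the filtered glucose, read 4.38, 5.78 and 5.42 in WT replicates 1 to 3 and 5.87, 6.07 and 5.35 in C3aR-/- replicates 1 to 3. WT replicate 1 was the lowest of the 6, and the other WT arrays lay within the C3aR-/- range. The means were 5.19 ± 0.73 (SD, n = 3) and 5.76 ± 0.37 (SD, n = 3), a difference of 0.57 ± 0.38 or 1.48-fold (limma adjusted p = 0.931). The interval ran from 0.782-fold to 2.81-fold, so it spans both directions.
The other Slc5a2 probe, whose sequence is given above, read -0.09, 1.07 and 0.26 in WT and 1.06, 1.44 and 0.73 in C3aR-/-. Its difference was 0.66 ± 0.33, so both probes of the gene read in the same direction. Without WT replicate 1 the difference of Slc5a2 was 0.16, without WT replicate 2 it was 0.86, and without both end arrays it was 0.0077. In bulk cortex, fewer cells of a type and less RNA per cell cannot be told apart.

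Slc5a1, the high-affinity glucose carrier of the later proximal tubule, went the other way in its mean. It read -1.02, -0.84 and -1.21 in WT and -1.75, -0.85 and -1.23 in C3aR-/-. C3aR-/- replicate 1 was the lowest, and C3aR-/- replicate 3 stood just under the lowest WT array. The difference was -0.25 ± 0.24 (interval -0.82 to 0.32, limma adjusted p = 0.931), and it was -0.014 without C3aR-/- replicate 1, -0.46 without C3aR-/- replicate 2 and -0.53 with array weights.

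Slc5a10 encodes SGLT5, a renal carrier of mannose and fructose. Its levels were 5.24, 5.77 and 5.61 in WT and 5.24, 6.31 and 4.91 in C3aR-/-. The highest and the lowest array were both C3aR-/- arrays, replicates 2 and 3, and the difference of the means was -0.06 ± 0.37 (interval -0.94 to 0.83). Weighting the arrays gave -0.40, and leaving out both end arrays gave -0.62 (limma unadjusted p = 0.0142, adjusted 0.513).

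Slc5a8 and Slc5a12 encode the sodium-coupled monocarboxylate carriers SMCT1 and SMCT2, which take back lactate. Slc5a12 had the largest difference of the 10 genes. Its levels were 2.28, 3.75 and 3.13 in WT and 3.83, 4.12 and 3.32 in C3aR-/-. WT replicate 1 was again the lowest, and WT replicate 2 stood above C3aR-/- replicate 3. The means were 3.05 ± 0.74 (SD, n = 3) and 3.76 ± 0.40 (SD, n = 3), a difference of 0.70 ± 0.39 or 1.63-fold with an interval of 0.845-fold to 3.14-fold (limma adjusted p = 0.931). Without WT replicate 1 it was 0.32, without WT replicate 2 it was 1.05, and without both end arrays 0.14. Slc5a8 read 1.25, 2.44 and 2.31 in WT and 1.74, 2.78 and 1.76 in C3aR-/-. These ranges overlap over most of their length, and the difference was 0.09 ± 0.41 (interval -0.90 to 1.08). Without both end arrays it was -0.63 (limma unadjusted p = 0.00272, adjusted 0.496).

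On the blood side of the tubule cell, neither exit carrier separated the groups. Slc2a2, the low-affinity glucose carrier GLUT2, read 1.11, 1.30 and 0.68 in WT and 1.04, 1.49 and 1.02 in C3aR-/-. The low WT array here was replicate 3 and not replicate 1. The difference was 0.16 ± 0.21 (interval -0.34 to 0.66, limma adjusted p = 0.935).
Slc2a1, the widespread glucose carrier GLUT1, read 3.44, 2.81 and 2.97 in WT and 3.10, 2.75 and 3.02 in C3aR-/-. Its order of arrays was turned over, with WT replicate 1 the highest and C3aR-/- replicate 2 the lowest. The difference was -0.12 ± 0.19 (interval -0.58 to 0.34, limma adjusted p = 0.949), and without WT replicate 1 it was 0.066.

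Slc2a5, the fructose carrier GLUT5, read 2.99, 3.52 and 3.56 in WT and 3.17, 3.98 and 3.003 in C3aR-/-. The WT arrays fell inside the C3aR-/- range except replicate 1, which stood just below it, and the difference was 0.03 ± 0.29 (interval -0.68 to 0.74). Without both end arrays it was -0.45 (limma unadjusted p = 0.0114, adjusted 0.498).
Slc2a9, the urate carrier GLUT9, read -3.16, -3.07 and -2.88 in WT and -3.36, -2.39 and -3.21 in C3aR-/- on probe a. All WT arrays fell between the C3aR-/- arrays, and the difference was 0.05 ± 0.26 (interval -0.58 to 0.68). Probe b was not well above background on any array. The remaining Slc2a9 probe, named after an Ensembl transcript and near background, differed by 0.79 ± 0.38 and was well above background on 1 WT and 3 C3aR-/- arrays. Among the genes with more than 1 probe (Slc5a2, Slc2a4 and Slc2a9), the genotype differences of the probes thus lay farthest apart for Slc2a9. That spread rests on probes near or below background. The Ensembl-named probe met the filter of at least 3 arrays only through its C3aR-/- arrays, where it read higher. In level, the probes of Slc5a2 and of Slc2a4 lay farther apart.

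Slc2a4 encodes GLUT4, which insulin brings to the surface of fat and muscle cells. It read 2.20, 2.61 and 2.83 in WT and 2.80, 2.83 and 2.94 in C3aR-/-. The C3aR-/- arrays lay close together at the top of the WT range, and WT replicate 1 was the lowest. The means were 2.55 ± 0.32 (SD, n = 3) and 2.85 ± 0.07 (SD, n = 3), a difference of 0.31 ± 0.17 or 1.24-fold (interval -0.11 to 0.72, limma adjusted p = 0.931). Its second probe, which carries the gene name in the files only and matched no RefSeq accession, read -2.78, -2.18 and -1.93 in WT and -1.89, -1.76 and -1.83 in C3aR-/-. That probe was the single one of the 14 whose groups did not overlap, with a difference of 0.47 ± 0.22 (limma adjusted p over kept probes = 0.947). Over all genes tested, groups did not overlap for 9.85%, so 1 such probe does not stand out. Without WT replicate 1 the difference of Slc2a4 was 0.13.

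**Figure D2:**
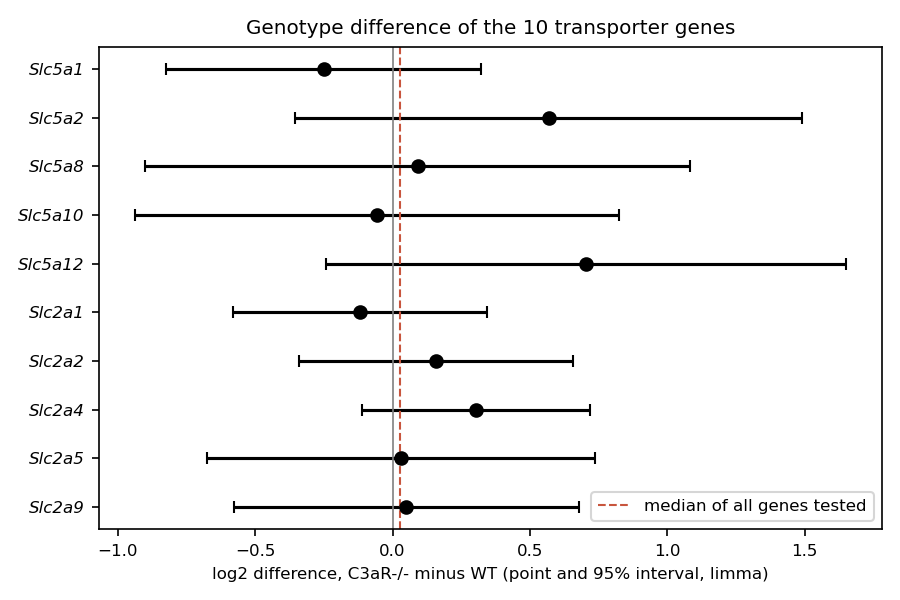
Difference of each transporter gene, C3aR-/- minus WT, in log2 units, with points for the limma estimate, bars for the 95% interval and a dashed line at the median of all genes tested. All 10 intervals include 0, and the points run from -0.25 for Slc5a1 to 0.70 for Slc5a12.

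The slide held the arrays in 2 rows, and the differences within the rows were unlike. Row 1 held 2 arrays of each group and row 2 held 1 of each, WT replicate 1 and C3aR-/- replicate 3. An effect of the row cannot be told apart from these single arrays, of which WT replicate 1 is an end array. The same limit holds for the fit with the row as a block. The sign was the same in both rows for 5 of the 10 genes and opposite for 5. Slc5a2 differed by 0.37 in row 1 and 0.97 in row 2, and Slc5a12 by 0.54 and 1.04. Slc5a1 stayed below 0 in both, at -0.27 and -0.20, while Slc2a1 stood at 0.036 and -0.43. With the row as a block the difference of Slc5a2 kept its size with a smaller error, 0.57 ± 0.18, and that of Slc5a12 was 0.70 ± 0.21. Their unadjusted p-values were 0.0217 and 0.0189, and neither passed adjustment over all genes (limma adjusted p = 0.585 and 0.558).

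For each of the 10 genes the WT arrays ranged more widely than the genotype means differed. WT replicate 1 gave the lowest level of Slc5a2, Slc5a8, Slc5a12, Slc2a4 and Slc2a5, 5 of the 10, and the highest of Slc2a1. C3aR-/- replicate 2 gave the highest level of 7 genes and the lowest of Slc2a1. Over the 6 arrays the 45 pairs of genes had correlations from -0.94 to 0.99 with a median of 0.46. Slc5a2 and Slc5a12 had the highest, with r = 0.987 (exact permutation p = 0.00417, adjusted over 45 pairs 0.0938) and a Spearman rho of 0.943 (exact permutation p = 0.0167, adjusted 0.300). It was 0.940 without the 2 arrays farthest from the median. Slc5a8 and Slc2a1 had the lowest, at r = -0.943 (exact permutation p = 0.00139, the smallest of the 45, adjusted 0.0625) and a rho of -1 (exact permutation p = 0.00278, adjusted 0.125), and -0.865 without those 2 arrays. All levels of an array share its scaling, and no pair passed adjustment.

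**Figure D3:**
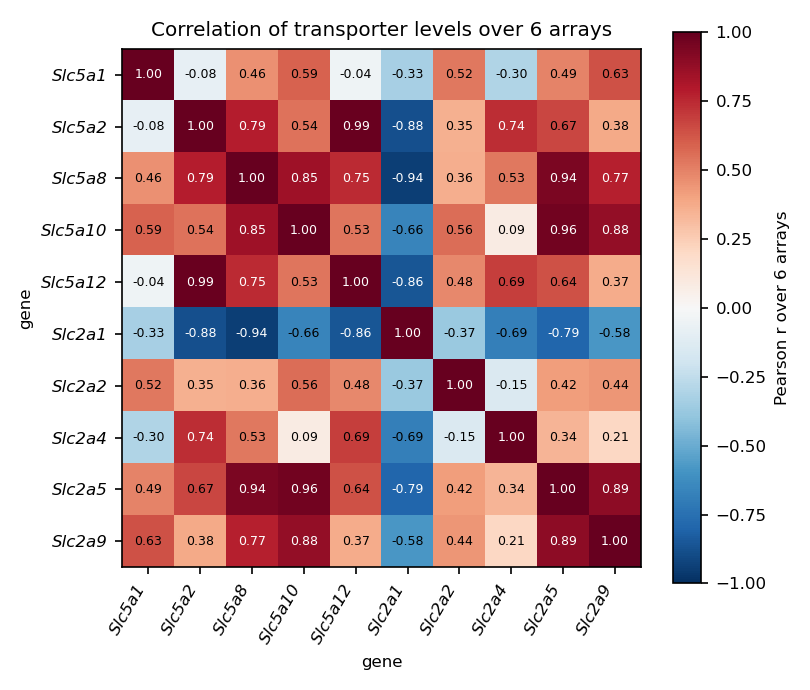
Pearson correlation of the level of each transporter gene with every other over the 6 arrays, from blue at -1 to red at 1. Slc2a1 is negative against all the others, and Slc5a2 with Slc5a12 is the highest pair at 0.99.

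The mean of a list of injured tubule markers correlated over the 6 arrays with 2 of the 10 genes, Slc5a2 and Slc5a12, by adjusted Pearson r. All 8 genes of that list read lower in C3aR-/-, with a median of -0.68, 3 had an unadjusted p under 0.05 and 0 passed adjustment over all genes (limma). Sox9, a regulator of regenerating tubule cells, differed by -0.60 ± 0.10 and the keratin Krt19 by -0.80 ± 0.27. Without both end arrays the median of the list was -0.067. Its mean level was 3.66, 2.53 and 2.76 in WT and 2.33, 1.92 and 2.68 in C3aR-/-, with WT replicate 1 the highest. Each of the 10 transporter genes was set against this mean over the 6 arrays. Slc5a12 fell as the list rose, with r = -0.980 (exact permutation p = 0.00139, adjusted over 10 relations 0.0139) and rho = -1 (exact permutation p = 0.00278, adjusted 0.0278). For Slc5a2 the values were r = -0.979 (exact permutation p = 0.00278, adjusted 0.0139) and rho = -0.943 (exact permutation p = 0.0167, adjusted 0.0833). With the 2 arrays farthest from the median of the list left out, which were again the end arrays, r was -0.942 and -0.914. After each group was centred on its own mean it was -0.971 and -0.983. The permutations moved arrays freely between the groups, whose list means differed, and the centred values carry no p. All 6 values share their arrays' scaling, and the part of the injured tubule cells in the levels of both carriers was not tested. The share of all genes with an r this strong to the list is not given here. The count of 2 is therefore not shown to be particular to these carriers.

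**Figure D4:**
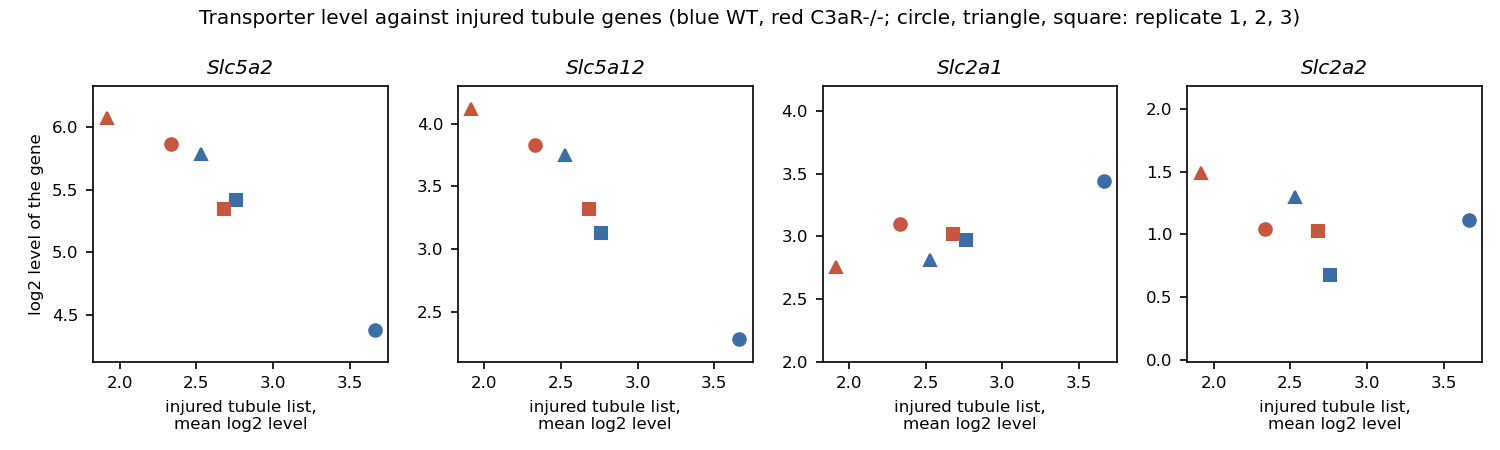
Level of Slc5a2, Slc5a12, Slc2a1 and Slc2a2 (vertical axes, log2, all of the same height) against the mean log2 level of 8 injured tubule genes (horizontal axes) on the 6 arrays, blue for WT and red for C3aR-/-. Slc5a2 and Slc5a12 step down along the list and WT replicate 1 stands apart at its high end, at 3.66.

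Other members did not show this relation, or showed it through the end arrays. Slc2a1 rose with the injured tubule list at r = 0.864 (exact permutation p = 0.0361, adjusted 0.120; rho = 0.600, exact permutation p = 0.242, adjusted 0.483), and r was -0.261 without the 2 end arrays, so over all arrays it rests on them, while with each group centred on its mean r was 0.935. Slc5a8 had r = -0.781 (exact permutation p = 0.0625, adjusted 0.156; rho = -0.600, exact permutation p = 0.242, adjusted 0.483) and 0.358 without them, and -0.941 with the groups centred. Slc2a2, the exit carrier of the same early segment as Slc5a2, had r = -0.412 (exact permutation p = 0.414, adjusted 0.460; rho = -0.543, exact permutation p = 0.297, adjusted 0.495) and -0.573 without them. A difference between Slc5a2 and Slc2a2 in this relation was not tested.

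The same relations were computed for markers of the early proximal tubule, and there 4 of the 10 transporter genes passed adjustment for r and 0 for rho (adjusted over 10 relations). Slc5a2 had r = 0.952 (exact permutation p = 0.00417, adjusted 0.0278) and rho = 0.943 (exact permutation p = 0.0167, adjusted 0.117). Slc5a12 had r = 0.956 (exact permutation p = 0.00556, adjusted 0.0278) and rho = 0.886 (exact permutation p = 0.0333, adjusted 0.117). Slc2a1 had r = -0.934 (exact permutation p = 0.00833, adjusted 0.0278) and Slc5a8 r = 0.898 (exact permutation p = 0.0139, adjusted 0.0347), with rho of -0.829 and 0.829 (exact permutation p = 0.0583, adjusted 0.117, for both). Without the 2 arrays farthest from the median, again the end arrays, r was 0.833 for Slc5a2, 0.791 for Slc5a12, -0.617 for Slc2a1 and 0.497 for Slc5a8. Against the red cell list, as a description over the same 6 arrays, r was 0.972 for Slc5a2 and 0.953 for Slc5a12, so high correlations of these 2 carriers were not confined to injury markers. Against the leukocyte list 0 of the 10 relations passed adjustment. The p-values of these relations were adjusted within a list and not over the 16 lists. Shares over all genes are not given, so these counts are not shown to be particular to the transporters.

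Of the early proximal markers themselves, all 10 read higher in C3aR-/-, with a median of 0.30, 0 had an unadjusted p under 0.05, and the list mean was 4.90, 5.81 and 5.50 in WT and 5.64, 6.17 and 5.45 in C3aR-/-. Without both end arrays 1 of these 10 read higher and their median was -0.089. The amino acid carrier Slc6a19 differed by 0.75 ± 0.44 and megalin, Lrp2, by 0.40 ± 0.26. Of 8 late proximal tubule markers 3 read higher, with a median of -0.15, which turned to 0.082 when WT replicate 3 was left out and to 0.039 when C3aR-/- replicate 2 was, and was -0.36 without WT replicate 1, and list means of 2.60 to 3.41 in WT and 2.34 to 3.29 in C3aR-/-. Slc7a12 differed by -0.83 ± 0.69 and Slc7a13 by 0.51 ± 0.55. All genes of both lists passed the filter on dim probes, and their part in the differences of Slc5a2 and Slc5a12 was not tested.

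Lists for other cell types gave these values. For GLUT4, the adipocyte list had 5 of 7 genes tested, since Adipoq and Plin1 did not pass the filter, and its mean ran from -2.68 to -0.97 in WT and from -2.43 to -1.07 in C3aR-/-. The median of the list was 0.12, and -0.15 without WT replicate 2. Leptin, Lep, differed by 0.12 ± 0.09 and the fat droplet gene Cidec by -0.52 ± 0.49. Muscle genes had 4 of 5 tested, all 4 higher with a median of 0.26, and list means of 0.87 to 1.28 in WT and 1.15 to 1.50 in C3aR-/-. Among them Myh11 differed by 0.61 ± 0.27, with 1 of its 4 probes in the opposite direction, and Acta2 by 0.38 ± 0.18. The red cell list had 5 of 6 genes tested, all 5 higher with a median of 0.63, and list means of 2.17 to 3.31 in WT and 3.10 to 3.81 in C3aR-/-. Without WT replicate 1 that median was 0.15, and without both end arrays -0.081. Alas2 differed by 0.68 ± 0.40 and Hba-a1 by 0.57 ± 0.39. Leukocyte genes were lower for 8 of 10, with a median of -0.57 (-0.25 without both end arrays) and 5 at an unadjusted p under 0.05, and list means of 1.12 to 1.61 in WT and 0.48 to 0.99 in C3aR-/-. Cd2 differed by -1.46 ± 0.32 and Cd79b by -0.66 ± 0.15. No gene of these lists passed adjustment over all genes, and their part in the levels of the 10 transporters was not tested.

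Among the remaining nephron and vessel lists the medians were small. Loop and distal tubule markers were higher for 5 of 6 with a median of 0.14 (-0.014 without WT replicate 1), and collecting duct markers for 7 of 7 with a median of 0.11, including the anion exchanger Slc26a4 at 0.27 ± 0.10 and the water channel Aqp2 at 0.26 ± 0.17. The magnesium channel Trpm6 differed by 0.30 ± 0.13 and Pvalb, parvalbumin of the distal tubule, by 0.36 ± 0.33. Podocyte markers were higher for 3 of 5 with a median of 0.07, which ran from -0.094 without C3aR-/- replicate 3 to 0.27 without C3aR-/- replicate 2. Endothelial markers were higher for 5 of 6 with a median of 0.12, which ran from -0.024 without C3aR-/- replicate 1 to 0.29 without WT replicate 3. Nephrin, Nphs1, differed by 0.26 ± 0.13 and podocalyxin, Podxl, by 0.25 ± 0.17, and the vessel receptors Tek by 0.23 ± 0.20 and Kdr by 0.28 ± 0.29.

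The rest of the 2 families was read beside the 10. Of 8 other SLC5 genes 4 passed the filter, and all 4 read higher with a median of 0.20, or 0.018 without WT replicate 1. The mannose carrier Slc5a9 differed by 0.32 ± 0.17 and the inositol carrier Slc5a11 by 0.36 ± 0.35. Of 7 other SLC2 genes 6 passed, 4 higher and 2 lower with a median of 0.10, which ran from -0.013 to 0.17 over all alternatives. Slc2a6, a carrier abundant in leukocytes, was the 1 gene of both families with an unadjusted p under 0.05, at -0.82 ± 0.28 (limma adjusted p = 0.931), and it read -0.45, -1.16 and -1.001 in WT and -1.81, -2.08 and -1.18 in C3aR-/-. C3aR-/- replicate 3 stood just below the lowest WT array, and without WT replicate 1 no gene of this list had an unadjusted p under 0.05. Slc2a10 differed by 0.44 ± 0.19, or by 0.033 with another background correction (normexp).

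Regulators and partners of renal glucose transport read higher for 13 of 15, with a median of 0.15 and 0 at an unadjusted p under 0.05. The kinase Sgk1, which raises carrier activity, differed by 0.43 ± 0.21 and the scaffold Slc9a3r1 by 0.19 ± 0.11. Txnip, a glucose-induced brake on glucose uptake named here after its value was seen, was 1 of the 2 that read lower, at -0.21 ± 0.14. Genes that use or release glucose and fructose in tubule cells were higher for 9 of 11, with a median of 0.27. That median was -0.010 without WT replicate 1 and ran from -0.23 to 0.42 over all alternatives. The 2 lower ones were also those with the smallest p, the aldose reductase Akr1b3 at -0.34 ± 0.17 and the hexokinase Hk2 at -0.73 ± 0.41. Urate and monocarboxylate genes were higher for 13 of 13, with a median of 0.15, but for 6 of 13 without WT replicate 1, with a median of -0.0089. Over all alternatives their median ran from -0.11 to 0.28. The organic anion carrier Slc22a8 differed by 0.89 ± 0.57 and the urate exporter Abcg2 by 0.21 ± 0.14. None of these genes passed adjustment over all genes. Of the genes named from these lists and the marker lists, Slc5a11, Slc22a8, Lrp2, Slc7a12, Slc7a13, Pvalb, Kdr and Hba-a1 had the opposite sign under at least 1 alternative.

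The genes most like 3 of the members over the 6 arrays were named by Pearson r alone, over all genes tested, as a description; all share the array scaling. For Slc5a2 these were Dnajb12 (r = 0.998), Cyb5b (0.995) and Ddt (0.994). For Slc2a2 they were Paip2 (0.996), Lrrc47 (0.993) and Fgfr1op2 (0.989), and for Slc2a1 they were Map7d3 (0.998), Dnttip2 (0.998) and 1700016K19Rik (0.997). None of these 9 genes is named in the lists above.

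**Figure D5:**
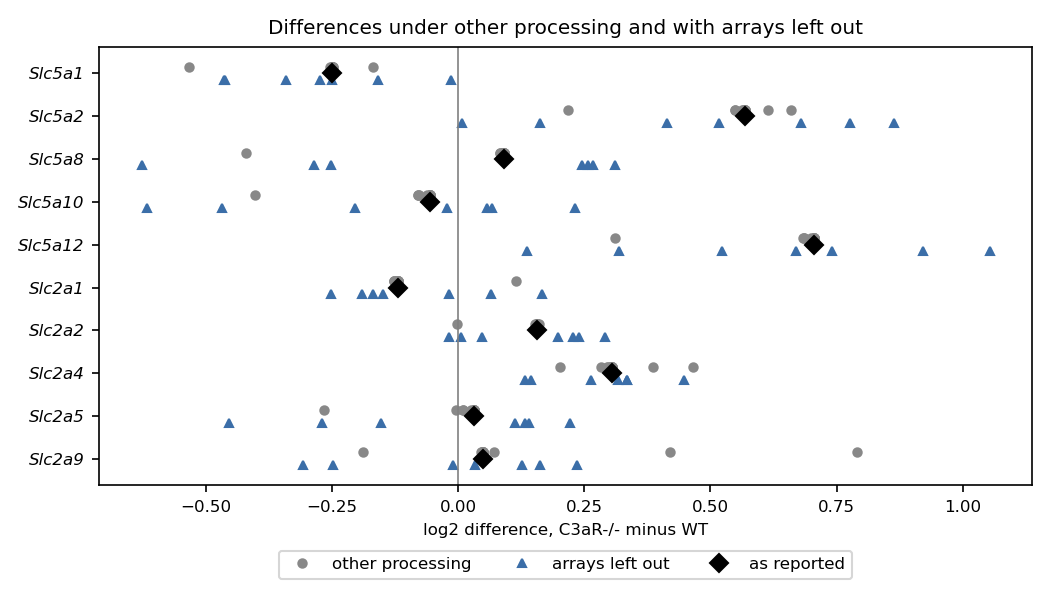
Difference of each transporter gene, C3aR-/- minus WT in log2 units, as reported (diamond), under other processing (circles) and with arrays left out (triangles). Slc5a1, Slc5a2, Slc5a12 and Slc2a4 stay on 1 side of 0 and the other 6 genes cross it.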

How the data were processed

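RNA of 6 renal cortex samples, 0.2 µg each, was labelled with Cy3 and read on 1-colour Agilent arrays. Per the file headers, the deposited intensity values came from Agilent Feature Extraction 10.7.1.1, on a grid whose probe positions are mm9, and the processed signal was background-subtracted and detrended but not normalized between arrays. The arrays shared a slide and a scan. The authors' deposited table holds log2 values with the same sorted values in every column, and no source used here says how it was made.

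Outlier spots were left out, which removed 6 probes. Probes well above background on at least 3 arrays were kept (34778 of 56599), with 1 probe per gene, the one with the highest mean. Names came through RefSeq accessions of GRCm38.p6 or from the files. Differences were tested with limma 3.58.1 in R 4.3.3 (lmFit and eBayes, Benjamini-Hochberg over 22741 genes), checked first on simulated data. Relations over arrays used exact two-sided permutation tests over all 6 arrays, without regard to group. Alternatives were quantile, median and normexp processing, the authors' table, other filters, the mean of probes, trended robust variances, array weights, replicate number or slide row as a block, and arrays left out. Figures used matplotlib 3.10.9. The 10 genes and 16 lists were chosen with earlier results of these data known. The genes named were all members, C3ar1, the 2 of smallest p in each list and the 3 most like Slc5a2, Slc2a2 and Slc2a1. Txnip, and the list genes that did not pass the filter, were named outside this rule, Txnip after its value was seen.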

Additional observations from a re-analysis of the deposited data

How the results depend on the processing

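Limma called 0 genes under each of the 18 alternatives, where the count at an unadjusted p under 0.05 was 1111 as reported, 2115 with array weights, 1741 with slide row as a block, 2025 without both end arrays, and 767 to 1523 with 1 array left out. The lowest adjusted p of any of the 10 genes was 0.496. Slc5a1, Slc5a2, Slc5a12 and Slc2a4 kept their direction under all alternatives, and 6 genes did not. The cause of the changes below was not tested. With array weights the count of members that read higher was 4, and the differences were 0.12 for Slc2a1, -0.0025 for Slc2a2, -0.27 for Slc2a5, -0.19 for Slc2a9, -0.42 for Slc5a8, -0.40 for Slc5a10 and -0.53 for Slc5a1. Without both end arrays they were 0.17 for Slc2a1, -0.45 for Slc2a5, -0.31 for Slc2a9, -0.63 for Slc5a8 and -0.62 for Slc5a10, and 3 of the 10 genes had an unadjusted p under 0.05. The end arrays were picked from the same data, so that count is a description and not a test. Normexp gave -0.0035 for Slc2a5. With 1 array left out the count of members that read higher ran from 4 to 8 (4 without C3aR-/- replicate 2), and the differences from -0.25 to 0.066 for Slc2a1, -0.019 to 0.29 for Slc2a2, -0.27 to 0.22 for Slc2a5, -0.25 to 0.24 for Slc2a9, -0.47 to 0.23 for Slc5a10 and -0.28 to 0.31 for Slc5a8. Whether the replicate numbers pair the arrays cannot be decided from 3 arrays per group (correlations of same-numbered deviations 0.13, 0.41 and -0.093). With the replicate block limma called 0 genes, 1596 had an unadjusted p under 0.05, and Slc5a2 differed by 0.57 ± 0.33 and Slc5a12 by 0.70 ± 0.30. The number of arrays and, for Slc2a9, signal near background limit what could be seen.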
